A study of Mus musculus with 9 samples.

Results

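The 10 genes described here are the RNA-binding protein genes Igf2bp1, Igf2bp2, Igf2bp3 and Lin28b, the chromatin protein genes Hmga1 and Hmga2, and the nuclear factor I genes Nfia, Nfib, Nfic and Nfix. They were chosen by name, and every array probe that carries one of these names was taken: 28 of the 41174 probes that are not controls. Their RNA was measured on 9 Agilent arrays of the mouse genome, read in the Cy3 channel, with 3 arrays per group. The iPax7 and iPax3 groups are lines of myogenic progenitors derived from pluripotent stem cells, which had been engrafted into the tibialis anterior muscle of hosts of the strain NSG/NSGmdx4cv and were re-isolated as mononucleated cells. The third group is adult satellite cells, which are the stem cells of the adult muscle, from the tibialis anterior of the strain Pax7-ZsGreen. The labels give an age of 3 months for all groups, and 1500 sorted cells, with 3 mice per line and 3 independent experiments. They do not say whether an array holds the cells of 1 mouse, they give neither the sort gate nor the sex, and each re-isolated group is 1 line. The p-values therefore measure the spread between these arrays.

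Lin28b binds the precursors of the let-7 microRNAs and blocks their maturation, and let-7 in turn represses Lin28b, Hmga2 and the Igf2bp genes. The Igf2bp proteins bind messenger RNAs and control their stability, transport and translation. Hmga1 and Hmga2 bind AT-rich DNA and open chromatin in embryonic and fetal cells. Lin28b, Hmga2, Igf2bp1 and Igf2bp3 are known as genes of embryonic and fetal tissues with low levels in most adult ones. The nuclear factor I proteins are DNA-binding transcription factors, and Nfix is known from mouse muscle as the factor that switches embryonic to fetal myogenic transcription.

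The let-7 family is shown because its seed, bases 2 to 8 in capitals, is what a target RNA pairs with. The mature sequences are those of RefSeq, on the build GRCm38.p6.
mmu-let-7a-5p (chr13:48538239-48538260, minus strand): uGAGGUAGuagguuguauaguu
mmu-let-7g-5p (chr9:106178846-106178867, plus strand): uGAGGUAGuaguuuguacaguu
mmu-let-7i-5p (chr10:122985698-122985719, minus strand): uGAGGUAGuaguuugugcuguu
All 3 share the seed GAGGUAG. Its complement, CTACCTC, was searched on the strand of each probe alone, and 2 of the 28 probes of the 10 genes hold it (7.14%), against 126 of all 41174 probes (0.306%). The match is to letters within a probe and says nothing of binding. The stretches around both matches follow, with the match in capitals and the positions on mm8, the build of the array files.
Igf2bp1 probe A_52_P295950 (chr11:95774222-95774247, minus strand): tggttttaatCTACCTCttagcaaaa
Hmga2 probe A_52_P300730 (chr10:119764743-119764770, minus strand): caaaacacactaCTACCTCttaagtccc

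A level below is the log2 processed signal of a probe minus the 75th percentile of its array, so 0 lies at that percentile. It is comparable between arrays and not between probes, so levels of different genes or of different probes are not set against each other. Of the 28 probes, 14 had a signal well above background on every one of the 9 arrays, 11 on 1 to 8 arrays and 3 on none. The 22 probes well above background on at least 3 arrays were tested. The tested probe with the highest mean level is called the lead probe of its gene, and it alone decides whether a gene counts as changed. Family by family, 10 of the 14 nuclear factor I probes were above background on every array, but only 2 of 7 Igf2bp probes, 2 of 4 Hmga probes and 0 of 3 Lin28b probes.

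None of the 10 genes was called as changed in any comparison at an adjusted p of 0.05 (limma, Benjamini-Hochberg over all 32967 tested probes). For iPax3 minus satellite cells 0 of 10 lead probes passed, against 0.385% of all tested probes. For iPax7 minus satellite cells 0 of 10 passed, against 0.434%. For the mean of both lines minus satellite cells 0 of 10 passed, against 0.758%. For iPax7 minus iPax3 0 of 10 passed, against 0% of all probes, of which 1410 (4.28%) had an unadjusted p under 0.05. The smallest adjusted p of a lead probe was 0.557 for iPax7 and 0.447 for iPax3 against satellite cells, 0.392 for both lines together and 1 for iPax7 minus iPax3. Among all 22 tested probes, 2, 2 and 3 had an unadjusted p under 0.05 in the iPax7, iPax3 and combined comparisons with satellite cells, where the share over all probes was 11.7%, 12% and 14.3%, and 0 in iPax7 minus iPax3.

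The precision was low. All 10 lead probes had a 95% interval that included 0 in each comparison. In the comparison of both lines together with satellite cells, all 10 intervals lay within 4 log2 units of 0 and 2 of them, those of Lin28b and Nfib, within 2. The standard errors of the lead probes in the comparisons of 1 line with satellite cells were 0.69 to 1.07. Changes of a few fold were not detectable at this spread, and larger ones could also fail to pass. The second Nfix probe, at 4.52 ± 1.32 log2 units (SE) for iPax3 minus satellite cells, did not pass (limma adjusted p = 0.226). The lack of a call therefore does not show that a gene was unchanged.

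**Figure D1:**
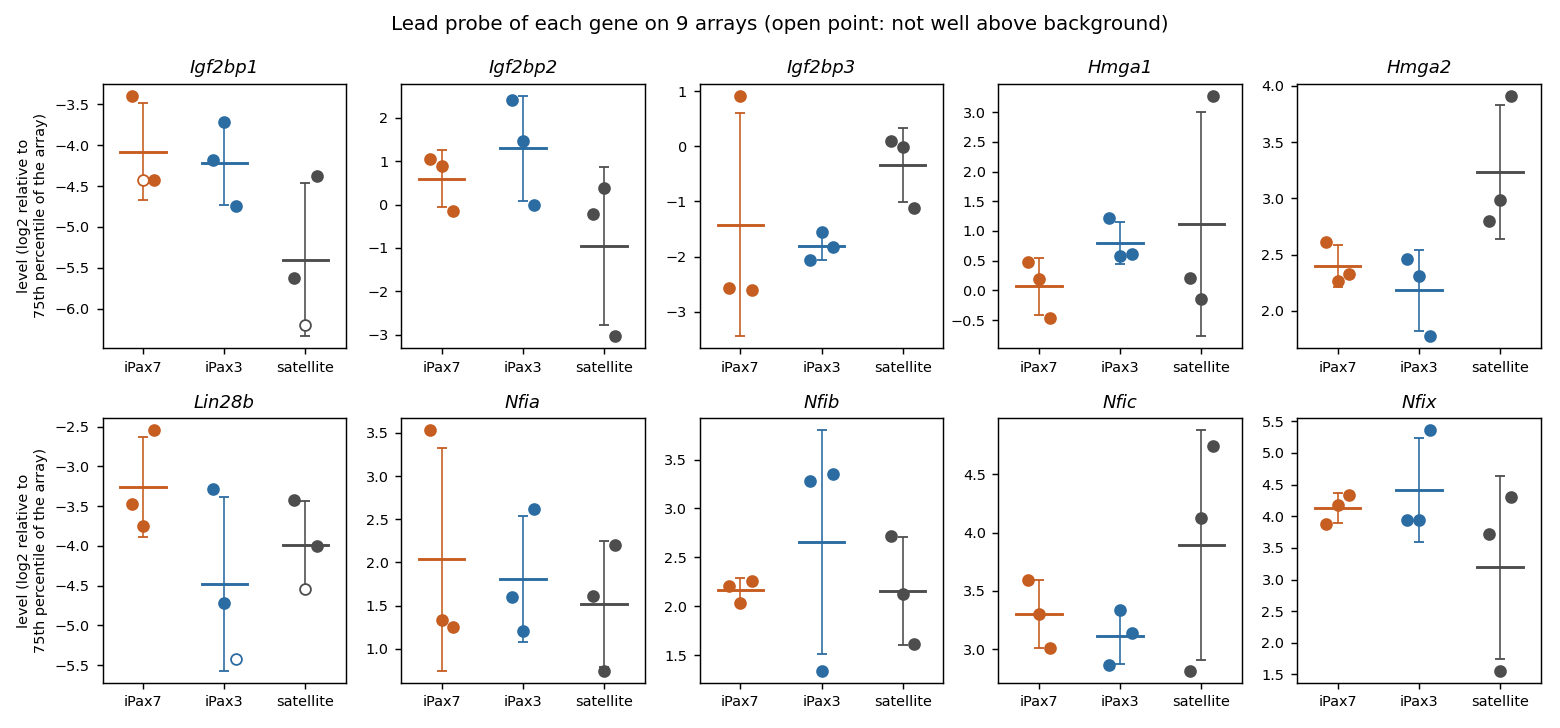
Level of the lead probe of each of the 10 genes (y axis, log2 units from the 75th percentile of the array) on the 3 arrays of each group, with the group mean as a line and the SD as the error bar. Each panel has its own scale, and open points are arrays on which the probe was not well above background. In the Hmga2 panel all 6 re-isolated arrays sit below the 3 satellite arrays, while in most other panels the groups overlap.

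Lin28b (chr10:45376617-45486314, minus strand, GRCm38.p6) was near the limit of detection in every group. Of its 3 probes, 2 had 0 arrays well above background. The third read -3.47, -3.76 and -2.55 on the iPax7 arrays, -3.29, -4.72 and -5.43 on the iPax3 arrays and -3.43, -4.54 and -3.99 on the satellite arrays. It was above background on all iPax7 arrays and on 2 arrays each of the iPax3 and satellite groups. The 3 groups overlapped, with means of -3.26 ± 0.63 in iPax7, -4.48 ± 1.09 in iPax3 and -3.99 ± 0.56 in satellite cells (SD, n = 3 each). The difference was 0.73 ± 0.82 for iPax7 minus satellite cells (SE; limma adjusted p = 0.770) and -0.49 ± 0.82 for iPax3 minus satellite cells (adjusted p = 0.831).

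The other genes of let-7 biogenesis gave 0 called of 10 measured in any comparison, from a list of 12 that holds Lin28b's partners and the processing enzymes. Of these, 4 were higher and 6 lower in iPax7 than in satellite cells (median -0.13). In iPax3, 6 were higher and 4 lower (median 0.18). In both lines together 6 were higher and 4 lower, with a median difference of 0.23, beside -0.02 over all probes. The 3 with the largest differences were Xpo5, which exports microRNA precursors from the nucleus, at -2.05 ± 1.81, Dicer1, which cuts them, at 1.23 ± 1.85, and Tut7, a uridyltransferase that tails let-7 precursors, at 1.23 ± 1.13 (SE). None of them passed (adjusted p from limma 0.641, 0.800 and 0.652). Lin28a and Trim71 were not above background on enough arrays to be tested.

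Hmga2 (chr10:120361268-120476469, minus strand, GRCm38.p6) was lower on every re-isolated array than on any satellite array. Its lead probe read 2.61, 2.26 and 2.32 on the iPax7 arrays, 2.46, 2.31 and 1.78 on the iPax3 arrays and 2.80, 2.99 and 3.91 on the satellite arrays. The means were 2.40 ± 0.19 in iPax7, 2.18 ± 0.36 in iPax3 and 3.23 ± 0.60 in satellite cells (SD, n = 3 each). The lines overlapped with each other. Such a separation of all 6 from all 3 arrays, in the lower direction, was present in 3.72% of all tested probes. The difference for both lines together was -0.94 ± 0.59 log2 units (95% interval -2.28 to 0.40) and did not pass (limma adjusted p = 0.496).

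The second tested Hmga2 probe, the one with the let-7 seed match printed above, read -5.74, -5.24 and -6.99 in iPax7, with 0 arrays well above background, -2.72, -1.56 and -5.82 in iPax3 and -5.93, -6.32 and -2.68 in satellite cells. It was above background on 2 arrays in iPax3 and 2 in satellite cells. Its difference was 1.61 ± 1.34 for iPax3 minus satellite cells and did not pass (limma adjusted p = 0.647), and no difference can be read for iPax7. The third Hmga2 probe was above background on 1 iPax7 array only.

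Hmga1 (chr17:27556574-27563672, plus strand, GRCm38.p6) has a single probe, above background on all 9 arrays. It read 0.47, 0.19 and -0.46 in iPax7, 1.21, 0.57 and 0.61 in iPax3 and 0.21, -0.15 and 3.28 in satellite cells. Satellite replicate 3 stood more than 3 log2 units above the other satellite arrays. The groups overlapped with satellite cells, and the differences were -1.05 ± 0.98 for iPax7 and -0.32 ± 0.98 for iPax3 (SE; limma adjusted p = 0.723 and 0.918). Without satellite replicate 3 the signs turned, to 0.04 for iPax7 and 0.77 for iPax3. All iPax7 arrays lay below all iPax3 arrays, by -0.73 ± 0.98 on average (adjusted p = 1), a separation in this direction that 5.15% of all probes had. Hmga1 has processed copies elsewhere in the genome, and whether its probe also detects them was not examined.

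Of 11 other high mobility group genes, all measured, 5 were higher and 6 lower in each line than in satellite cells. The medians were -0.56 in iPax7 and -0.18 in iPax3. In both lines together 6 were higher and 5 lower, with a median of 0.22, and 1 passed. Hmgxb3, which encodes a protein with an HMG box, fell and was at least 207-fold lower in iPax7 and at least 291-fold lower in iPax3 than in satellite cells (limma adjusted p = 0.0176 and 0.0265). Its probe read -5.65, -5.64 and -5.98 in iPax7, -5.07, -5.40 and -5.39 in iPax3 and 0.10, 3.71 and 5.31 in satellite cells. None of the 6 re-isolated arrays was well above background, so each fold is a bound. It sets the satellite mean against the lowest signal above background on the re-isolated arrays and leaves out the spread between arrays. The chromatin protein genes Hmgb2 and Hmgn3 did not pass (adjusted p = 0.594 and 0.224 in both lines together). They were above background on all 6 re-isolated arrays, but Hmgb2 on 2 and Hmgn3 on 1 of the 3 satellite arrays.

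Igf2bp2 (chr16:22059009-22163299, minus strand, GRCm38.p6) had higher means in both lines than in satellite cells. Its only probe, above background everywhere, read 1.05, 0.89 and -0.16 in iPax7, 2.41, 1.47 and 0.00 in iPax3 and -0.21, 0.38 and -3.03 in satellite cells. The groups overlapped, and satellite replicate 3 was the lowest array. The means were 0.60 ± 0.65 in iPax7, 1.29 ± 1.21 in iPax3 and -0.95 ± 1.82 in satellite cells (SD, n = 3 each). The difference was 1.55 ± 1.07 for iPax7 (limma adjusted p = 0.620) and 2.25 ± 1.07 for iPax3 minus satellite cells (95% interval -0.18 to 4.67; adjusted p = 0.447). Without satellite replicate 3 these differences were 0.51 and 1.21.

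Igf2bp1 (chr11:95957163-96005944, GRCm38.p6) was dim. Its lead probe read -3.39, -4.42 and -4.42 in iPax7, -4.18, -3.71 and -4.75 in iPax3 and -5.63, -6.20 and -4.38 in satellite cells, and was above background on 7 of 9 arrays. The higher means of the re-isolated groups overlapped with satellite replicate 3. The differences were 1.32 ± 0.78 for iPax7 and 1.19 ± 0.78 for iPax3 minus satellite cells (limma adjusted p = 0.557 and 0.564). Normexp background correction turned their sign, to -0.15 for iPax7 and -0.23 for iPax3. Another Igf2bp1 probe was bright on a single array, satellite replicate 2, at 3.44, and read -2.59 on iPax7 replicate 2, with the other 7 arrays not above background. The probe with the let-7 seed match was not above background on any array.

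Igf2bp3 (chr6:49085218-49215469, minus strand, GRCm38.p6) gave opposite signs at neighbouring probes. Both tested probes are printed because the disagreement rests on them, the upstream one lying in a single stretch and the other, the lead probe, split by an intron over 608 bases of mm8.
Igf2bp3 probe A_52_P271232 (chr6:49036988-49037047, minus strand): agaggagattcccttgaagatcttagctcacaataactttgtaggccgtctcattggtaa
Igf2bp3 probe A_51_P302336 (chr6:49017436-49018043, minus strand): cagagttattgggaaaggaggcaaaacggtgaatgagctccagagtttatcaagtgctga

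The lead Igf2bp3 probe read -2.57, 0.92 and -2.60 in iPax7, -2.06, -1.55 and -1.83 in iPax3 and 0.10, -0.01 and -1.12 in satellite cells. All iPax3 arrays lay below all satellite arrays, while iPax7 replicate 2 was the highest array of all. The differences were -1.08 ± 1.03 for iPax7 and -1.47 ± 1.03 for iPax3 minus satellite cells (limma adjusted p = 0.730 and 0.587). Without iPax7 replicate 2 the iPax7 difference was -2.25, and with the mean of the Igf2bp3 probes it was 1.90. The upstream probe read -6.03, 0.05 and 0.21 in iPax7, -7.09, -1.88 and -7.14 in iPax3 and -8.80, -6.20 and -5.39 in satellite cells. It was well above background on 2 iPax7 arrays, 1 iPax3 array and 0 satellite arrays, an on-or-off pattern between arrays of 1 group. Its iPax7 mean was 9.56-fold above the lowest signal above background on the satellite arrays, a value that leaves out the spread between arrays. The fitted 95% interval was 0.35 to 9.40 log2 units, without passing the test (limma adjusted p = 0.401).

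The RNAs that Igf2bp proteins are known to bind gave 0 called of 11 measured from a list of 12. In each line 6 were higher and 5 lower than in satellite cells, with medians of 0.02 in iPax7 and 0.53 in iPax3. In both lines together 5 were higher and 6 lower, with a median of -0.31. Igf2, the growth factor gene whose messenger gave the family its name, read 6.27, 5.84 and 5.80 in iPax7, 6.04, 5.86 and 6.49 in iPax3 and 2.64, -6.24 and -6.73 in satellite cells. It was above background on all 6 re-isolated arrays and on satellite replicate 1 alone, and the groups did not overlap. The fitted difference of 9.49 ± 1.83 did not pass (limma adjusted p = 0.0566), and its size rests on signals of 2 satellite arrays that were not above background. Btrc, a ubiquitin ligase subunit gene, differed by 2.35 ± 1.14 and Igf1r, the receptor gene of the pathway, by -1.95 ± 1.94 (adjusted p = 0.387 and 0.681). Of 8 proteins that bind RNA together with the Igf2bp family, 0 were called, 4 were higher and 4 lower. Dhx9, an RNA helicase gene, differed by -2.10 ± 1.53, Elavl1, which encodes an RNA-stabilising protein, by 1.6 ± 0.99 and Fmr1, a regulator of translation, by 1.25 ± 1.42, none passing (adjusted p = 0.561, 0.490 and 0.724).

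The let-7 target genes other than these 10 gave 0 called of 16 measured from a list of 18. By line, 9 were higher and 7 lower in iPax7 (median 0.07), and 8 higher and 8 lower in iPax3 (median -0.10). In both lines together 8 were higher and 8 lower, with a median of 0.15. Hras, which encodes a small GTPase of growth factor signalling, differed by 1.97 ± 2.35 (SE) without passing (limma adjusted p = 0.737).

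**Figure D2:**
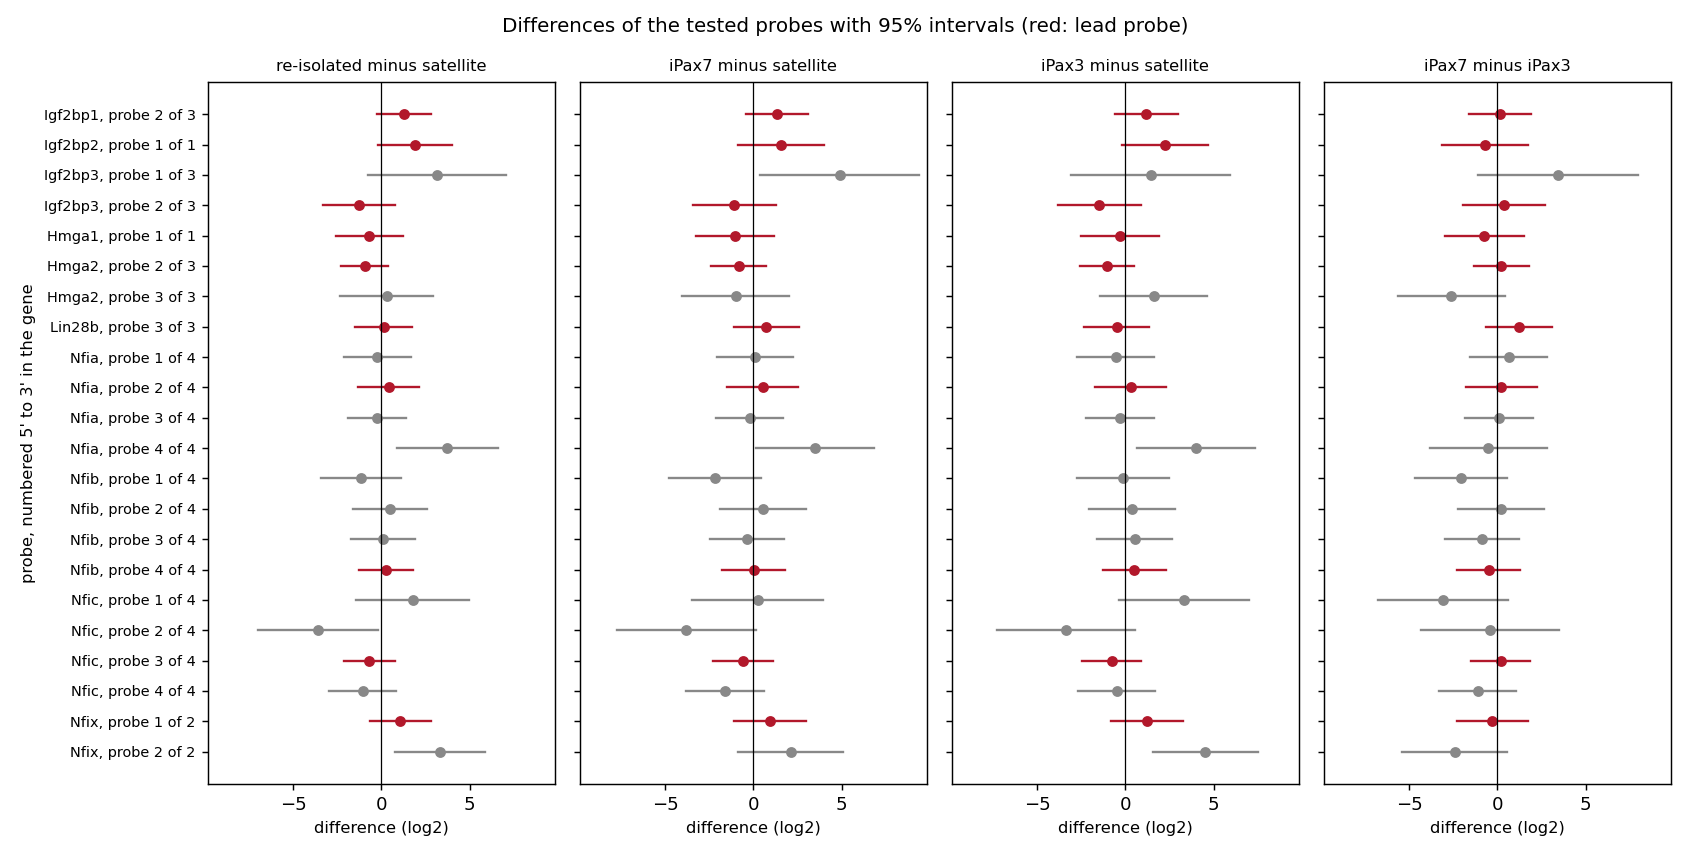
Difference in log2 units (x axis) with its 95% interval for each of the 22 tested probes (y axis, numbered 5′ to 3′ within each gene over all its probes) in 4 comparisons, with lead probes in red. All red intervals cross 0, and probes of the same gene lie on both sides of 0 in 5 of 6 genes for both lines together minus satellite cells.

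Nfix (chr8:84704712-84801238, minus strand, GRCm38.p6) has 2 probes. The lead probe crosses an intron and spans 578 bases of mm8. It is printed because the value that decides the call of Nfix rests on it.
Nfix probe A_51_P478598 (chr8:87616653-87617230, minus strand): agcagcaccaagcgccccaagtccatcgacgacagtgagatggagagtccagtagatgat

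It read 3.87, 4.17 and 4.34 in iPax7, 3.94, 3.95 and 5.36 in iPax3 and 3.72, 1.56 and 4.31 in satellite cells. Satellite replicate 2 was low and the groups overlapped. The differences were 0.93 ± 0.90 for iPax7 and 1.22 ± 0.90 for iPax3 minus satellite cells (limma adjusted p = 0.731 and 0.605). Without satellite replicate 2 they were 0.12 and 0.40. The second Nfix probe, also above background on all 9 arrays, read -3.36, 1.47 and 0.83 in iPax7, 1.75, 1.79 and 2.64 in iPax3 and -0.81, -3.30 and -3.29 in satellite cells. Here the iPax3 arrays lay above all arrays of the other groups. The difference of 4.52 ± 1.32 for iPax3 minus satellite cells had the smallest p of the 22 probes (unadjusted p = 0.00722) and did not pass (limma adjusted p = 0.226). For iPax7 it was 2.11 ± 1.32 (adjusted p = 0.579).

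Nfic (chr10:81396191-81431919, minus strand, GRCm38.p6) has 4 probes, all tested, which did not share a sign. The lead probe varied little among re-isolated arrays. It read 3.60, 3.30 and 3.01 in iPax7, 2.86, 3.34 and 3.14 in iPax3 and 2.81, 4.12 and 4.74 in satellite cells, with differences of -0.59 ± 0.75 and -0.78 ± 0.75 from satellite cells (limma adjusted p = 0.799 and 0.694). The groups overlapped through satellite replicate 1. The probe that neighbours it on the 3′ side, A_51_P477418, overlaps it by 12 of 60 bases. That probe read -1.75, -0.24 and -2.88 in iPax7, -1.91, 0.16 and 0.24 in iPax3 and 0.41, 0.42 and -0.86 in satellite cells, with overlapping groups. Its differences from satellite cells were -1.62 ± 0.97 for iPax7 and -0.50 ± 0.97 for iPax3 (limma adjusted p = 0.565 and 0.859). The other Nfic probes gave opposite signs and are printed for that reason, the second of them crossing an intron over 2340 bases of mm8.
Nfic probe A_52_P551496 (chr10:80809282-80809341, minus strand): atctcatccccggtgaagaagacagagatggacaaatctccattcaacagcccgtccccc
Nfic probe A_51_P502892 (chr10:80804193-80806532, minus strand): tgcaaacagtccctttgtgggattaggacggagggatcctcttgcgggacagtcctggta

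The first of these, A_52_P551496, read -1.74, 2.11 and -0.32 in iPax7, 3.46, 2.04 and 3.79 in iPax3 and 3.61, -2.49 and -1.78 in satellite cells. Satellite replicate 1 was as high as the iPax3 arrays and the other satellite arrays were low. The second, A_51_P502892, read -4.98, 1.02 and 1.49 in iPax7, 0.69, 0.41 and -2.28 in iPax3 and 1.26, 3.43 and 4.26 in satellite cells. All iPax3 arrays lay below all satellite arrays there. For iPax3 minus satellite cells the first differed by 3.32 ± 1.64 and the second by -3.37 ± 1.74, of nearly the same size and opposite sign (limma adjusted p = 0.458 and 0.473). For iPax7 the sizes were unlike, at 0.24 ± 1.64 and -3.80 ± 1.74 (limma adjusted p = 0.971 and 0.443). The second probe was not above background on iPax7 replicate 1, at -4.98.

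**Figure D3:**
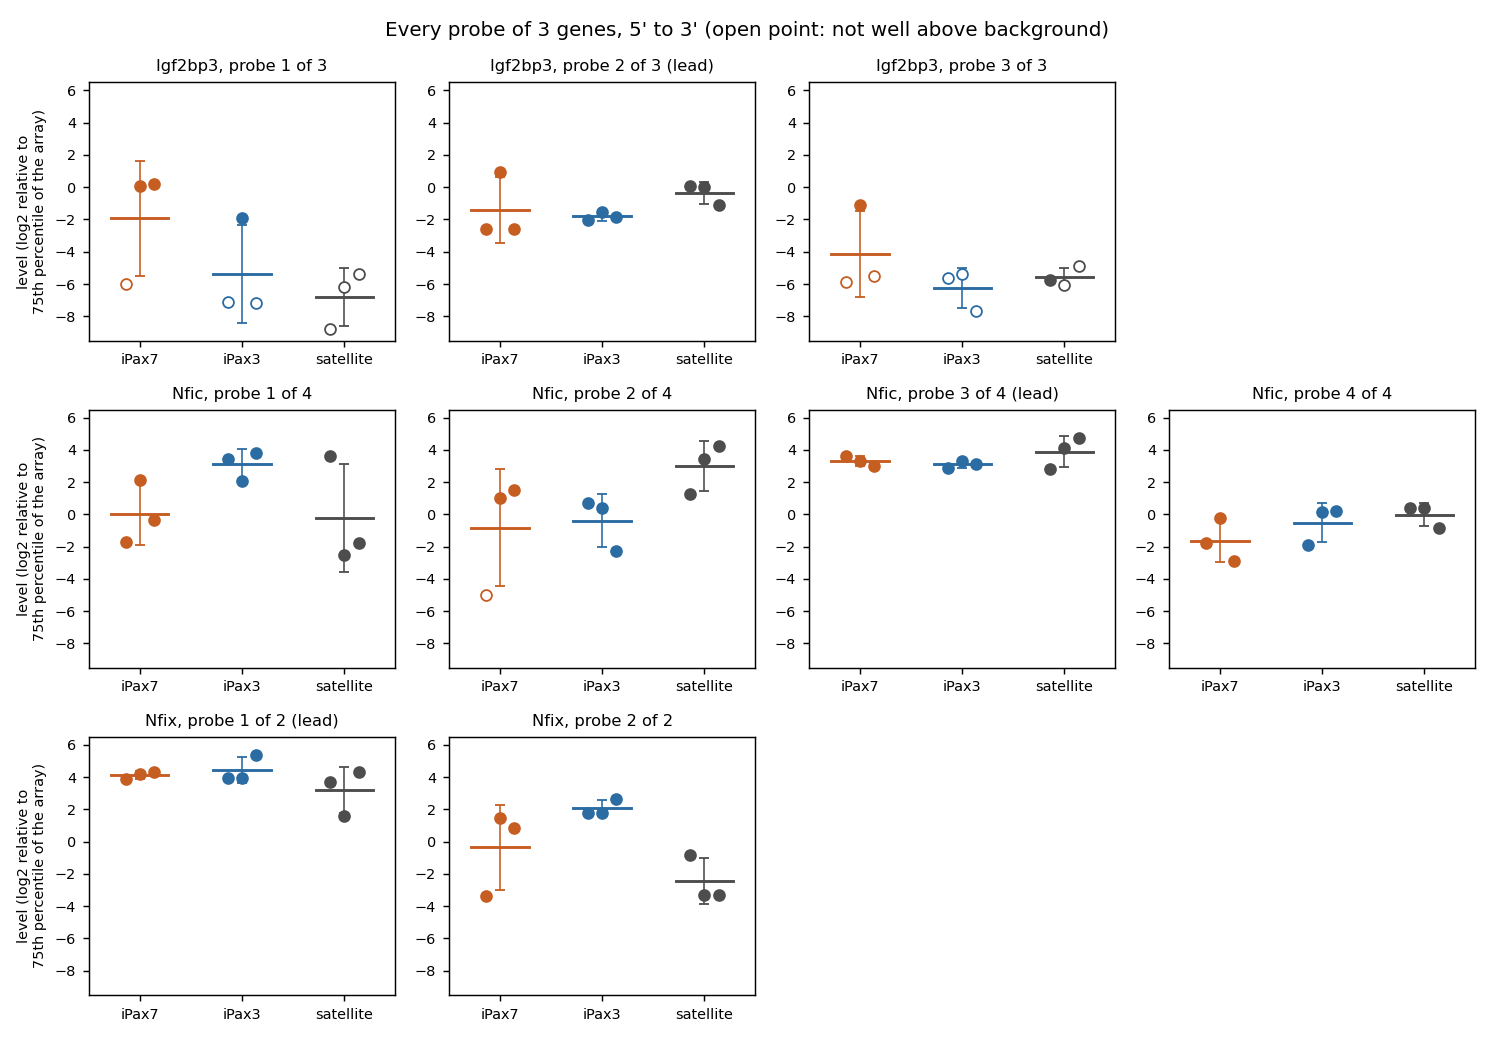
Levels (y axis, log2 units from the 75th percentile of the array) of every probe of Igf2bp3, Nfic and Nfix on the 3 arrays of each group, with the mean as a line and the SD as the error bar, on a shared scale. Open points are arrays on which the probe was not well above background. The first Igf2bp3 probe is above background on 2 iPax7, 1 iPax3 and 0 satellite arrays, and the first and second Nfic probes place iPax3 on opposite sides of satellite cells.

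Nfia (chr4:97578066-98118876, plus strand, GRCm38.p6) also has 4 probes. Its lead probe read 3.53, 1.33 and 1.25 in iPax7, 1.6, 1.20 and 2.62 in iPax3 and 1.61, 0.74 and 2.20 in satellite cells. The groups overlapped, and the differences were 0.52 ± 0.89 and 0.29 ± 0.89 from satellite cells (limma adjusted p = 0.861 and 0.918). The most 3′ of the 4 probes, A_52_P641684, read 2.26, 0.81 and 0.97 in iPax7, 2.05, 1.25 and 2.31 in iPax3 and 1.5, -5.13 and -2.75 in satellite cells. Only satellite replicates 2 and 3 were low there, and replicate 1 lay among the re-isolated arrays. The difference was 3.48 ± 1.47 for iPax7 and 4.0 ± 1.47 for iPax3 minus satellite cells (limma adjusted p = 0.412 and 0.336). Satellite replicate 2 was not above background at this probe, so the size of both differences rests partly on its signal. The remaining 2 probes differed by between -0.55 and 0.09.

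Nfib (chr4:82290173-82506751, GRCm38.p6) had a lead-probe difference of 0.02 ± 0.79 for iPax7 minus satellite cells (limma adjusted p = 0.996). That probe read 2.21, 2.04 and 2.26 in iPax7, 3.28, 1.34 and 3.35 in iPax3 and 2.72, 2.12 and 1.61 in satellite cells. The iPax7 arrays all lay within the range of the satellite arrays. For iPax3 minus satellite cells the difference was 0.50 ± 0.79 (adjusted p = 0.819), with iPax3 replicate 2 below every other array. At the most 5′ probe, A_52_P282494, every iPax7 array lay below every satellite array. The means were -1.63 ± 2.26 in iPax7 and 0.54 ± 0.45 in satellite cells (SD, n = 3 each; limma adjusted p = 0.516). The iPax7 mean rests partly on replicate 1, at -4.24 and not above background, while replicates 2 and 3 read -0.39 and -0.27. Both remaining probes were above background on every array. A_51_P304412 differed by -0.36 for iPax7 and 0.52 for iPax3 minus satellite cells, and A_52_P476973 by 0.57 and 0.39.

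Of the genes known from the Nfix circuit of mouse fetal muscle, 0 of 15 measured were called from a list of 16, with 4 higher and 11 lower in both lines together and a median of -0.60. Pax7, the transcription factor gene that marks satellite cells, read -3.90, -3.25 and -3.76 in iPax7, -3.15, -0.53 and -3.52 in iPax3 and 2.89, 3.53 and -0.66 in satellite cells. Its difference of -4.94 ± 1.07 did not pass (limma adjusted p = 0.0864), and iPax3 replicate 2 overlapped with satellite replicate 3. Mef2c, a partner of myogenic factors, and Rhoa, a small GTPase gene, did not pass (adjusted p = 0.239 and 0.451). Both were above background on all 6 re-isolated arrays, but Mef2c on 1 and Rhoa on 2 of the 3 satellite arrays.

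Across probes, 1 tested probe was higher and 3 were lower on all iPax3 than on all satellite arrays, 4 of 22 against 18.5% of all probes. On all iPax7 than on all satellite arrays 0 were higher and 2 lower, against 15.8% of all probes. For both lines together the Hmga2 lead probe was the single such case, against 7.86% of all probes. These shares do not set the 10 genes apart from the array. The spread within groups was widest in satellite cells for 6 of the 10 lead probes, in iPax7 for 2 and in iPax3 for 2.

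Between the lines, the 95% interval of every lead probe included 0. For iPax7 minus iPax3 Lin28b differed by 1.22 ± 0.82 (95% interval -0.63 to 3.07; limma adjusted p = 1), Hmga1 by -0.73 ± 0.98 and Igf2bp2 by -0.70 ± 1.07. On the only slide that holds both lines, iPax7 replicate 1 against the mean of the 3 iPax3 arrays, these values were 1.01, -0.33 and -0.25. Nfia, at 0.23 over all arrays, was at 1.72 there, and Igf2bp3, at 0.39 over all arrays, was at -0.76. Groups did not overlap at 2 of the 22 probes, both lower in iPax7, against 9.37% of all probes.

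Among the marker lists, only the fibroblast and satellite cell lists held genes that passed, and only against satellite cells. The labels name the re-isolated groups as lines of myogenic progenitors, while most fibroblast markers were higher and the satellite cell markers lower in them. Of 12 fibroblast and fibro-adipogenic markers, 11 were higher and 1 lower in both lines together, with a median of 5.31. Those that passed were 6 in iPax7, 4 in iPax3 and 7 in both lines together, all higher. These 7 were the matrix genes Dcn (8.71 ± 0.68, limma adjusted p = 0.00119), Col1a1 (6.30 ± 0.68), Col1a2 (5.99 ± 0.68), Lum (5.39 ± 0.93) and Fbn1 (5.36 ± 0.84), the growth factor receptor gene Pdgfra (7.90 ± 0.72) and the surface antigen gene Ly6a (4.38 ± 0.67). The summed level of a list is the log2 of the sum of its levels, each first taken out of log2, so the brightest probes weigh most. For the 12 fibroblast and fibro-adipogenic markers it was 9.37 to 10.3 in iPax7, 8.91 to 9.85 in iPax3 and 6.07 to 7.42 in satellite cells. All 12 were above background on some array of each group. Of 9 measured satellite cell markers, 9 were lower in both lines together and 1 passed, Chrdl2, a BMP antagonist gene, at -9.12 ± 0.64 (limma adjusted p = 0.00119). Calcr, the calcitonin receptor gene, differed by -4.57 ± 1.59 and did not pass (adjusted p = 0.252). The summed level of the satellite cell markers was 4.80 to 6.05 in iPax7, 5.20 to 5.57 in iPax3 and 7.24 to 7.77 in satellite cells. No endothelial, leukocyte, pericyte, mature fibre, pluripotency or proliferation marker was called in any comparison. Of 10 endothelial markers, 5 were higher and 5 lower in iPax7 than in satellite cells (median 0.27), 2 higher and 8 lower in iPax3 than in satellite cells (median -1.64), and 9 higher and 1 lower in iPax7 than in iPax3 (median 1.90). The medians over all probes were -0.06, -0.03 and 0.02 in the same comparisons. Their summed level was 3.24 to 5.99 in iPax7, 2.17 to 2.65 in iPax3 and 3.33 to 4.34 in satellite cells. The endothelial genes Cdh5 and Tek were above background on 0 iPax3 arrays. In both lines together, 6 of 11 leukocyte, 3 of 9 pericyte and smooth muscle, 4 of 9 mature fibre, 2 of 7 pluripotency and 5 of 12 proliferation genes measured were higher than in satellite cells, with medians between -0.41 and 0.00. Of the proliferation genes, 5 were higher and 7 lower in both lines together (median -0.34). The 3 with the largest differences were Cdk1 at -2.18 ± 1.19, Mcm5 at 1.90 ± 1.79 and Birc5 at 1.34 ± 0.85. None of these passed (limma adjusted p = 0.439, 0.662 and 0.499). By line, 7 of the 12 measured were higher in iPax7 (median 0.52) and 4 in iPax3 (median -0.63) than in satellite cells. Cdk1 was above background on 0 iPax7, 2 iPax3 and 2 satellite arrays, so the size of its difference rests partly on signals not above background. The other way, 2 further genes of the list were above background on 0 iPax3, 2 iPax7 and 2 satellite arrays each. The part of these cell mixtures in the values of the 10 genes was not tested, and fewer cells of a type cannot be told apart from less RNA per cell. Re-isolated and satellite arrays differed in host strain, slide and scan day, which cannot be told apart from the groups. All 3 iPax3 arrays and iPax7 replicate 1 shared a slide. The share of probes above background was 56.6% to 73.2% in iPax7, 69.2% to 77.3% in iPax3 and 57.0% to 79.7% in satellite cells. The highest share was that of satellite replicate 1, scanned on another day than the other satellite arrays. It correlated at 0.576 on average with the other satellite arrays and at 0.618 with the re-isolated arrays. Every other array correlated more with its own group. The cause was not tested.

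**Figure D4:**
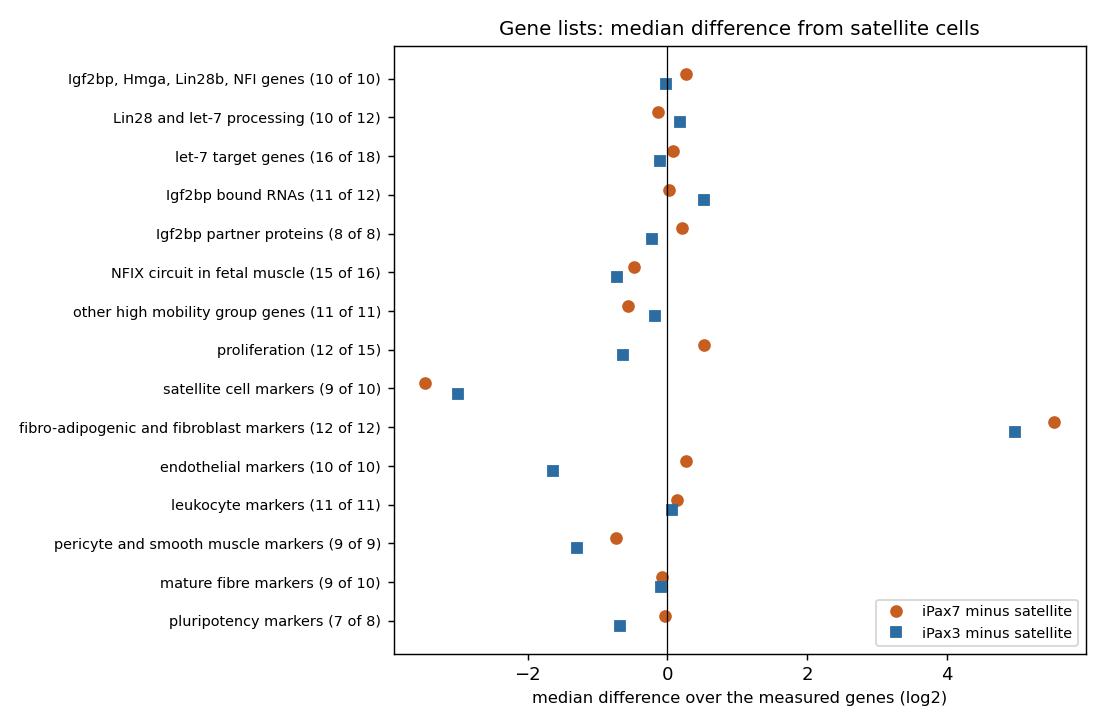
Median difference from satellite cells in log2 units (x axis) over the measured genes of each list (y axis, with the measured number of all in brackets), for iPax7 as circles and iPax3 as squares. The fibroblast list lies near 5 and the satellite cell markers near -3, while the 10 genes lie at 0.27 for iPax7 and -0.01 for iPax3.

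As a description over 9 arrays that share groups, slides and amplification, the genes most like each lead probe were ranked by Pearson's r among 13313 genes above background on every array. For Hmga2 they were the homeobox gene Evx2 (r = 0.984) and the ribosomal oxygenase gene Riox1 (0.981). For Igf2bp3 they were Uqcr10 (0.948) and Coa4 (0.942), both named for mitochondrial respiratory complexes. For Igf2bp2 they were 4930524O08Rik (0.944) and the oestrogen receptor gene Esr2 (0.919), for Hmga1 Tex50 and the keratin gene Krt20 (both 0.964), and for Nfix the kinesin light chain gene Klc1 (0.956) and the proteasome gene Psmb8 (0.924). For Nfia the first was the immediate early gene Egr1 (0.954), for Nfic the first gene with a symbol was Tcl1b3 (0.978), and for Nfib Znrd1 (0.879) and the Mediator gene Med7 (0.870). Among the 10 genes themselves, the highest r was 0.778, between Hmga2 and Nfic, and the lowest -0.671, between Igf2bp2 and Hmga2.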

How the data were processed

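Each of the 9 samples has 1 array, with its group and replicate number read from its title. Per the file headers, Agilent Feature Extraction 10.5.1.1 wrote the deposited intensity values after background subtraction. The headers set the flag for well above background at 13 standard deviations. The deposited value table, log2 values of 31918 spots, was made with limma per the submitters' processing notes, with no version. Its column medians were 7.69, 7.701 and 7.669 for iPax7, 7.704, 7.709 and 7.68 for iPax3 and 7.676, 7.633 and 7.656 for satellite replicates 1 to 3, and its columns correlated with the log2 mean signals at 0.9875 to 0.9993. It is log2 and uncentred, the adjustment between its columns is unknown, and it served as an alternative.

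The processed signal, floored at the smallest positive value of the array, was taken as log2, and the 75th percentile over non-control spots was subtracted. Outlier spots were left out (60 to 342 per array), none was saturated, and spots of a probe were averaged. Probes well above background on at least 3 of 9 arrays, with at least 2 values in each group, were tested (32967 of 41174). limma 3.58.1 in R 4.3.3 (lmFit, eBayes) was fitted once over all 9 arrays with no block, with Benjamini-Hochberg adjustment over all tested probes at 0.05. The 10 genes and the gene lists were chosen with earlier results of these data known. By the naming rule, every probe of the 10 genes may be named, with the called genes of each list, its 3 largest differences for both lines together, and the 2 genes most alike to each lead probe above background on all arrays. Marker lists with no call are given as counts, other than the named proliferation and endothelial genes. Of the let-7 target genes, 1 that the rule names is not reported here.

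The number of arrays limits the precision, as the 95% intervals show. The fitting script was tested on simulated data. Gene positions come from the RefSeq table of GRCm38.p6 and probe positions from the array files (mm8). Exons and UTRs of probes were not annotated here, other than the 4 probes split by an intron.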

Additional observations from a re-analysis of the deposited data

How the results depend on the processing

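None of the 10 genes was called in any comparison under any of 24 alternatives, in 912 values, and the smallest adjusted p of a lead probe was 0.251. In 45 of these values the sign turned, 19 of them with an array left out, and the cause was not tested.

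Over all probes, 127 were called for iPax3, 143 for iPax7 and 250 for both lines minus satellite cells, and 0 for iPax7 minus iPax3. In the same order, the deposited table gave 205, 236 and 379, the slide as a random block (estimated correlation 0.394) 19, 71 and 70, with 1 for iPax7 minus iPax3, and the scan day 39, 58 and 72. The 2 groups alone gave 20 for iPax3 and 40 for iPax7, and probes above background on all 9 arrays gave 94 for iPax7. Quantile normalisation called 2 probes and the mean of a gene's probes 1 for iPax7 minus iPax3. Equal replicate numbers did not pair the samples (correlations of deviations -0.143 to 0.0466), and the replicate block gave 24, 75 and 127. With 1 array left out the counts ranged over 14 to 624, 53 to 688, 102 to 944 and 0 to 0. The highest 3 came without satellite replicate 1, the lowest without iPax3 replicate 3 for iPax3 and without satellite replicate 2 for the other comparisons.

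With normexp background correction, Igf2bp1 was at -0.23 for iPax3, -0.15 for iPax7 and -0.19 for both lines, and Lin28b at -0.028 for iPax7 and -0.276 for both. Quantile normalisation gave Lin28b -0.38 for both lines, and for iPax7 minus iPax3 Nfia -0.00132 and Nfic -0.0828. The percentile over probes detected on all arrays gave Hmga1 0.0647 for iPax3 and, for iPax7 minus iPax3, Igf2bp1 -0.0156. The deposited table gave Hmga1 0.0701 for iPax3 and Lin28b -0.0676 for both lines, and for iPax7 minus iPax3 Hmga2 -0.0263, Nfia -0.0313 and Nfic -0.0829. The mean of a gene's probes, which adds probes of other sign, gave Hmga2 0.28 for iPax3, Igf2bp3 1.90 for iPax7 and 0.94 for both, Nfib -0.49 for iPax7 and -0.0821 for both, and for iPax7 minus iPax3 Hmga2 -1.20 and Nfic -1.11. As a random block the slide gave Nfia -0.23 for iPax3 and Igf2bp3 -0.14 for iPax7 minus iPax3, and the scan day gave Nfib -0.0147 for iPax7. With the slide as a fixed block, chosen after seeing the data, Igf2bp3 was at -0.76 for iPax7 minus iPax3.

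With 1 array left out, the sign turned for Hmga1 (-0.95 to 0.77 for iPax3, -1.68 to 0.0354 for iPax7, -1.31 to 0.40 for both lines), Nfia (-0.12 to 0.63 for iPax3, -0.23 to 0.91 for iPax7), Nfib (-0.25 to 0.30 for iPax7, -0.00853 to 0.59 for both) and Lin28b (-0.18 to 0.40 for both). For iPax7 minus iPax3 it turned for Igf2bp1 (-0.21 to 0.38), Igf2bp3 (-0.78 to 0.98), Nfia (-0.52 to 0.64) and Nfix (-0.52 to 0.18).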
